A study of Mus musculus with 12 samples.

Results

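Histone genes were picked from the gene table by name: rows beginning Hist and a digit followed by h, H2af, H3f3 or H1f, pseudogenes left out. The rule matched 83 of 32285 genes. They were 67 replication-dependent histone genes (the Hist names), 15 replacement histone genes and H3f3aos, an antisense RNA with 30 counts in all that is not counted as a histone gene below. RNA was taken from IB10 cells, a mouse embryonic stem cell line of 129/Ola origin, grown on gelatin in serum with leukaemia inhibitory factor and left untreated. The cells had 4 genotypes with 3 libraries each: wild type, knockout of the helicase DHX36 (DHX36 KO), knockout of the helicase FANCJ, whose gene symbol is Brip1 (FANCJ KO), and knockout of both (DHX36/FANCJ KO). The labels give neither the altered sequence of a knockout, nor the number of clones, nor whether a genotype's libraries stem from separate cultures. The p-values therefore measure the spread between these libraries, which may be technical. If a genotype stems from a single clone, a difference between clones cannot be told apart from the knockout.

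Replication-dependent histone genes supply the bulk histones that package newly copied DNA in S phase. Their mRNAs normally end without a poly(A) tail, just after a short stem-loop that is bound by the stem-loop binding protein SLBP and cut with the help of the U7 small nuclear RNP. Replacement histones are made throughout the cell cycle from ordinary polyadenylated mRNAs and mark particular chromatin, such as H2A.Z at promoters, H3.3 at active genes and macroH2A in silent chromatin. The libraries were made by a protocol like CEL-Seq2, which primes on poly(A), so a tag from a replication-dependent gene comes from a transcript with a poly(A) stretch and not from the stem-loop end itself. Each transcript yields a tag near its 3′ end, so levels in CPM (a gene's counts scaled by the normalised total of its library, alike in all libraries) were not divided by gene length.

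The stem-loop is shown because it was found mostly in the replication-dependent class, though it did not separate the 2 classes fully. In the GENCODE M21 transcripts of the mouse build GRCm38, the sense strand was searched within 100 bases after the stop codon for 16 bases of the form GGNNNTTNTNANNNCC whose first and last 6 bases pair as Watson-Crick partners. Of the 67 replication-dependent genes 46 held it, against 1 of 15 replacement genes, H2afx, and 3 of 21617 other protein-coding genes (0.0139%). Of the 21 replication-dependent genes without it, 15 have fewer than 16 annotated bases after the stop, so no match could be found there. The copies below are from genes whose results are described later, with the stem-loop in capitals and flanking bases in lower case, 5′ to 3′ on the gene's own strand.
H2afx: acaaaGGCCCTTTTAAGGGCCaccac
Hist1h1c: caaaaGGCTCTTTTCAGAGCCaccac
Hist1h4i: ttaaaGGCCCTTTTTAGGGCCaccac
Hist1h4d: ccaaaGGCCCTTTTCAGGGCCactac
Hist3h2a: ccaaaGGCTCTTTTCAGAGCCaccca
Hist1h2ap: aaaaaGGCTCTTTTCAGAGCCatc
The capitals lie at chr9:44335240-44335255 (plus strand) for H2afx, chr13:23739512-23739527 (plus) for Hist1h1c, chr13:22040966-22040981 (minus) for Hist1h4i, chr13:23581950-23581965 (plus) for Hist1h4d, chr11:58955172-58955187 (plus) for Hist3h2a and chr13:21833029-21833044 (minus) for Hist1h2ap, each in the untranslated part of the mRNA after the stop codon. Among all 47 matches 9 forms occurred. The form of Hist1h1c, Hist3h2a and Hist1h2ap was found in 26 genes and that of Hist1h4d in 7, while the form of H2afx was found in no other histone gene.

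Annotated transcripts often run past the stem-loop. In 26 replication-dependent genes a transcript continued for at least 50 bases beyond it, and these genes had a median of 73 counts over all 12 libraries (range 2 to 777). The 20 genes whose transcripts end closer to the stem-loop had a median of 19.5 counts (0 to 3944), and the 21 genes without a match had a median of 5. Tags that lie past the annotated end of a gene may not have been counted for it. These medians can therefore depend on the annotation used for counting, which was not tested. The exception among the short transcripts was Hist1h2ap, an H2A gene annotated to end 3 bases after its stem-loop, which held 42.2% of all replication-dependent counts. Its tags are uncertain: 93.1% of the 50-base windows of its transcript also occur in a further 24 genes, other H2A genes among them. AATAAA or ATTAAA, the usual poly(A) signals, stood in the last 50 bases of a transcript in 17 of 67 replication-dependent genes, 10 of 15 replacement genes and 78.0% of other coding genes. Such a match is a property of the annotation and does not locate the tags. Hist1h2bc, an H2B gene, was the only replication-dependent gene annotated with an intron after the stop codon: its splice site lies 9 bases past the stop, the intron is 7554 bases long, and the second exon lies at chr13:23692176-23692908.

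**Figure D1:**
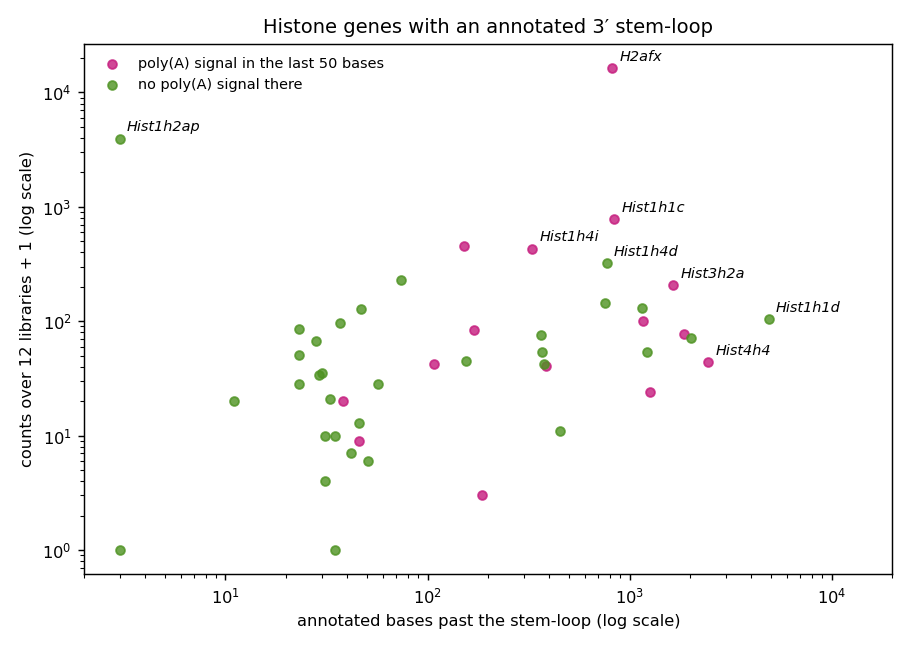
Total counts over 12 libraries plus 1 (vertical axis, log scale) against the bases annotated past the stem-loop (horizontal axis, log scale) for the 46 replication-dependent genes with a stem-loop and H2afx, coloured by whether a poly(A) signal stands in the last 50 bases. The 26 replication-dependent genes that run at least 50 bases past it range from 2 to 777 counts, and Hist1h2ap stands apart with 3944 counts and 3 bases.

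Replication-dependent genes gave few tags. They summed to 9351 counts over the 12 libraries against 422374 for the replacement genes, 2.17% of all histone counts. By type they were 6 H1, 18 H2A, 18 H2B, 12 H3 and 13 H4 genes, with 54 of the 67 on chromosome 13. No count was found in any library for 6 of them and for 5 replacement genes, namely H1foo, H1fnt, H2afb1, H2afb2 and H2afb3 (named after their values were seen), and 23 replication-dependent genes had fewer than 10 counts in all. The default expression filter of edgeR, about 10 counts at the median depth or 1.28 CPM in at least 3 libraries, left 15 replication-dependent and 10 replacement genes to be tested and 57 untested. The tested genes had mean levels of 0.901 to 39.5 CPM (median 2.22) in the first class and 16.7 to 1896 CPM (median 134) in the second. All 10 replacement genes reached the filter level in every library. Of the 15 replication-dependent genes 5 did so, and 3 (Hist3h2a, Hist1h3g and Hist1h3a) reached it in no wild-type library, so these were tested only because of their level in knockout libraries.

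Depth and cell identity differed between the genotypes. Total counts were 4284785 to 5792862 in wild type, 6223087 to 10919405 in DHX36 KO, 4936662 to 7900066 in FANCJ KO and 10915924 to 14721931 in DHX36/FANCJ KO, so a count of 0 allows a level of up to 3 counts, or 0.204 to 0.700 CPM by library. These limits cover counting error only. The mitochondrial share of counts was 10.0 to 10.6% in wild type and 11 to 13.2% over the knockout libraries. Dhx36 averaged 54.1 ± 3.79 CPM in wild type (SD, n = 3) and 55.6 ± 3.57 in FANCJ KO against 10.5 ± 1.45 in DHX36 KO and 13.9 ± 1.54 in DHX36/FANCJ KO. Brip1 averaged 6.87 ± 0.154 and 6.93 ± 0.486 CPM in wild type and the DHX36 knockout against 0.338 ± 0.253 and 0.414 ± 0.295 in the FANCJ and double knockouts. All 9 embryonic stem cell markers were present in every genotype, and their summed level was 4454 to 4538 CPM in wild type, 4972 to 5212 in DHX36 KO, 3961 to 4189 in FANCJ KO and 6025 to 6086 in DHX36/FANCJ KO. Primitive endoderm markers (8 genes, none at 0 in a genotype) summed to 84.3 to 107 CPM in wild type and 71.9 to 76.8, 176 to 189 and 84.7 to 91.9 in the DHX36, FANCJ and double knockouts. Neuroectoderm markers (7 genes, 1 at 0 throughout wild type and 1 throughout the FANCJ knockout) summed to 158 to 166, 178 to 182, 161 to 169 and 128 to 143 CPM in the same order. Fibroblast markers (8 genes, none at 0 in a genotype) summed to 88.0 to 94.5 CPM in wild type, 74.4 to 86.4 and 82.0 to 89.7 in the DHX36 and FANCJ knockouts and 33.1 to 38.6 in DHX36/FANCJ KO. Sums can hide opposite changes, by the test described below. In DHX36 KO 4 of 5 tested neuroectoderm markers fell and 1 rose (median log2 fold change -0.99). Of 7 primitive endoderm markers 2 rose and 2 fell there, where 12.8% of all genes rose and 11.6% fell. In DHX36/FANCJ KO 2 of 6 fibroblast markers rose and 3 fell, against 16.6% and 17.3% of all genes. The part of depth and of these cell identities in the histone results was not tested, except that every library was also thinned to the same total.

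In DHX36 KO no tested histone gene was called lower than in wild type and 8 of the 25 were called higher. They were the replacement genes H2afj, H1fx, H1f0, H2afy and H3f3b and the replication-dependent genes Hist3h2a, Hist1h2bc and Hist1h4i, at 1.24-fold to 2.69-fold. Hist3h2a gave the upper end but reached the filter level in no wild-type library, so it was tested only because of its level in knockout libraries. Its call was lost under 7 of 11 alternative analyses. Over all 12765 genes tested, 12.8% rose and 11.6% fell (edgeR quasi-likelihood F test, Benjamini-Hochberg adjusted p under 0.05). The median log2 fold change was 0.23 over the 25 histone genes and 0.00 over all genes. In the double knockout 8 histone genes rose and H2afy2 fell against wild type, where 16.6% of all genes rose and 17.3% fell. The medians were 0.39 over the histone genes and 0.01 over all genes. Hist3h2a, Hist1h3g and Hist1h3a reached the filter level in no wild-type library. The counts and medians against wild type may therefore lean towards higher values in the knockouts. In FANCJ KO no histone gene passed the threshold against wild type. Of the 25, 3 (H2afj, Hist1h1a and Hist1h4d) had an unadjusted p under 0.05, and over all genes 1.45% rose and 0.619% fell. DESeq2 called 1 histone gene there, Hist1h4d, as lower. These 3 comparisons share the wild-type libraries, so their values for a gene are not independent. In bulk RNA, fewer cells expressing a gene and less RNA per cell cannot be told apart.

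**Figure D2:**
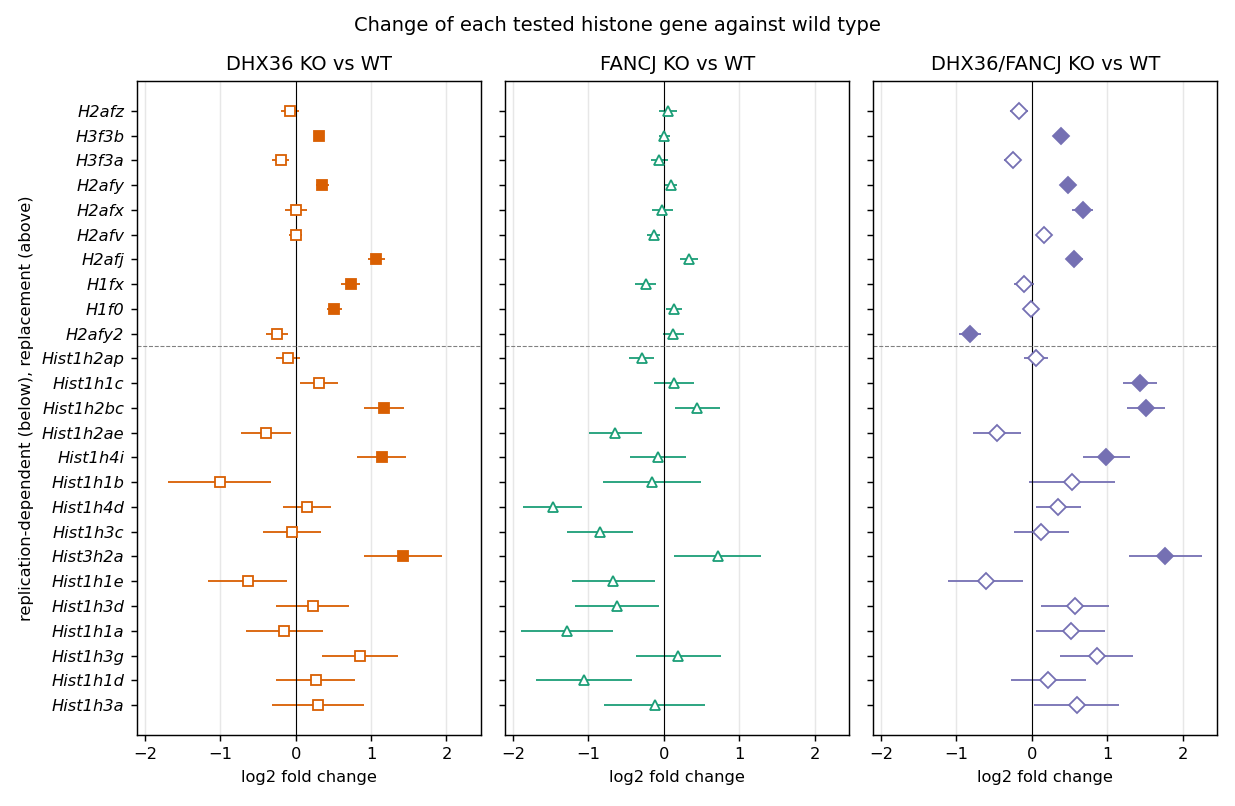
Log2 fold change against wild type (horizontal axis, bars are the SE) of the 25 tested histone genes in the 3 knockout genotypes, with filled points for an adjusted p under 0.05. Filled points lie at 0.31 to 1.43 in DHX36 KO, there are none in FANCJ KO, and H2afy2 is the filled point below 0 in DHX36/FANCJ KO.

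Among the linker histones, which bind DNA between nucleosomes, both tested replacement genes rose in DHX36 KO and were near the wild-type level in DHX36/FANCJ KO. H1f0 encodes H1.0, a linker histone known to accumulate in resting and differentiated cells. Its level was 33.9, 33.6 and 29.7 CPM in wild type, 46.8, 48.6 and 44.0 in DHX36 KO, 34.9, 37.5 and 34.0 in FANCJ KO and 31.1, 32.4 and 33.1 in DHX36/FANCJ KO. The DHX36 knockout libraries stood above all others. Against wild type the log2 fold change was 0.51 (SE 0.10, adjusted p = 0.00085) in DHX36 KO and -0.01 (SE 0.10, adjusted p = 0.94) in DHX36/FANCJ KO. H1fx, the gene of linker histone H1X, was also highest in DHX36 KO, with 34.1, 32.9 and 46.8 CPM in wild type, 61.7, 65.0 and 60.9 in DHX36 KO, 30.4, 31.2 and 34.9 in FANCJ KO and 40.4, 34.7 and 29.8 in DHX36/FANCJ KO. Again no other library reached the DHX36 knockout range. The log2 fold change was 0.73 (SE 0.13, adjusted p = 0.00028) in DHX36 KO, and the double knockout lay below the DHX36 knockout by a log2 difference of -0.83 (SE 0.12, adjusted p = 3.9e-05). H1fx overlaps the antisense gene Gm5577 by 755 bases, and since the counting of strand is not given in the sources used here, reads of the pair may not be separable; Gm5577 itself had 2 to 32 counts a library. H1f0, H2afy and H3f3a also overlap antisense genes. The interaction, how losing FANCJ acted in DHX36 KO cells less how it acted in wild type, was -0.66 (SE 0.14, adjusted p = 0.0044) for H1f0 and -0.60 (SE 0.18, adjusted p = 0.047) for H1fx. The H1fx value lost its call under 13 of 18 alternatives, among them the omission of any library but wild-type replicate 3 and replicate 1 of DHX36/FANCJ KO (adjusted p = 0.062 to 0.13 for these 10 libraries).

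H2afj showed the strongest evidence of change among the replacement genes. It encodes H2A.J, an H2A variant that differs from bulk H2A mainly at the C terminus. Levels were 25.2, 30.6 and 30.9 CPM in wild type, 65.5, 58.4 and 58.2 in DHX36 KO, 37.3, 36.0 and 35.7 in FANCJ KO and 39.3, 41.1 and 48.2 in DHX36/FANCJ KO. The 4 genotypes did not overlap, in the order wild type, FANCJ knockout, double knockout, DHX36 knockout. Against wild type the log2 fold change was 1.07 (SE 0.11, adjusted p = 5.2e-07) in DHX36 KO and 0.56 (SE 0.11, adjusted p = 0.00057) in DHX36/FANCJ KO, and 0.33 (SE 0.12, adjusted p = 0.18) in FANCJ KO. The double knockout lay below the DHX36 knockout (log2 difference -0.51, SE 0.10, adjusted p = 0.0011), with an interaction of -0.83 (SE 0.16, adjusted p = 0.0014).

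H2afx was higher in DHX36/FANCJ KO alone. H2A.X is the H2A variant that is phosphorylated around DNA double-strand breaks, and H2afx is known to give both a stem-loop mRNA and a polyadenylated one. Its annotated transcript runs 822 bases past the stem-loop printed above and carries a poly(A) signal. Levels were 151, 140 and 114 CPM in wild type, 129, 149 and 130 in DHX36 KO, 131, 135 and 135 in FANCJ KO and 191, 169 and 287 in DHX36/FANCJ KO. All double knockout libraries lay above all the others, and replicate 3 stood far above its 2 companions. The log2 fold change of the double knockout was 0.67 (SE 0.14, adjusted p = 0.00083) against wild type, 0.67 (SE 0.14, adjusted p = 0.0015) against the DHX36 knockout and 0.69 (SE 0.14, adjusted p = 0.00052) against the FANCJ knockout, while the single knockouts differed from wild type by 0.01 (SE 0.14, adjusted p = 0.98) and -0.02 (SE 0.14, adjusted p = 0.98). Without replicate 3 of the double knockout these 3 differences were 0.42, 0.42 and 0.43 (adjusted p = 0.0063, 0.011 and 0.0046), and the interaction fell from 0.68 (SE 0.20, adjusted p = 0.035) to 0.42 (adjusted p = 0.089). That interaction lost its call under 9 of 18 alternatives, with a highest adjusted p of 0.10 without wild-type replicate 1.

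The macroH2A pair moved in opposite directions in DHX36/FANCJ KO. MacroH2A proteins carry a large globular domain and are known from the inactive X chromosome and other silent chromatin. H2afy (macroH2A1) was at 163, 159 and 158 CPM in wild type, 199, 195 and 220 in DHX36 KO, 170, 167 and 177 in FANCJ KO and 237, 220 and 214 in DHX36/FANCJ KO. Both genotypes without DHX36 lay above both with it, with log2 fold changes against wild type of 0.36 (SE 0.08, adjusted p = 0.0024) and 0.48 (SE 0.08, adjusted p = 6.7e-05) and an interaction of 0.03 (SE 0.11, adjusted p = 0.90). H2afy2 (macroH2A2) was at 22.1, 18.0 and 17.1 CPM in wild type, 17.7, 14.7 and 15.7 in DHX36 KO, 20.2, 19.5 and 23.1 in FANCJ KO and 9.81, 11.7 and 10.9 in DHX36/FANCJ KO. Every double knockout library was below every other library. H2afy2 fell by 0.82 on the log2 scale against wild type (SE 0.14, adjusted p = 0.00013), by 0.58 against the DHX36 knockout (SE 0.14, adjusted p = 0.0042) and by 0.95 against the FANCJ knockout (SE 0.14, adjusted p = 1.1e-05), with an interaction of -0.70 (SE 0.20, adjusted p = 0.027) that lost its call under 6 of 17 alternatives: at equal totals (adjusted p = 0.077) and without wild-type replicate 2 or 3, DHX36 KO replicate 1, FANCJ KO replicate 3 or DHX36/FANCJ KO replicate 1 (0.063 to 0.077). The gene overlaps Aifm2 on the other strand, which had 5 to 38 counts a library.

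H3f3a and H3f3b encode the same H3.3 protein, the H3 variant deposited outside replication by HIRA and by the DAXX and ATRX pair. H3f3b was at 894, 864 and 848 CPM in wild type, 1065, 1074 and 1087 in DHX36 KO, 891, 837 and 892 in FANCJ KO and 1111, 1161 and 1135 in DHX36/FANCJ KO. The genotypes without DHX36 again lay above those with it: log2 fold changes were 0.31 (SE 0.07, adjusted p = 0.0025) and 0.39 (SE 0.07, adjusted p = 0.00019) against wild type, and 0.38 (SE 0.07, adjusted p = 0.0002) for the double against the FANCJ knockout. H3f3a was at 864, 948 and 717 CPM in wild type, 628, 682 and 898 in DHX36 KO, 882, 752 and 792 in FANCJ KO and 708, 707 and 707 in DHX36/FANCJ KO. No comparison of H3f3a passed the threshold (log2 fold change -0.25, SE 0.11, adjusted p = 0.089 for the double knockout against wild type). As a share of the counts of the pair, H3f3b made up 50.9 ± 3.26% in wild type (SD, n = 3), 59.6 ± 4.29% in DHX36 KO, 52.0 ± 1.5% in FANCJ KO and 61.6 ± 0.526% in DHX36/FANCJ KO. Each DHX36-deficient library had a higher share than each library with DHX36. Of the windows of H3f3a 14.9% and of H3f3b 8.40% are shared with other genes, predicted genes among them, so some reads of either could be assigned elsewhere.

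The H2A.Z genes gave 1 call between them. H2A.Z is found at promoters and is exchanged by the SRCAP and p400 complexes. H2afz, the most abundant histone gene in the data, was at 1897, 2132 and 1837 CPM in wild type, 1878, 1752 and 1938 in DHX36 KO, 1657, 1758 and 2688 in FANCJ KO and 1717, 1781 and 1717 in DHX36/FANCJ KO. Replicate 3 of the FANCJ knockout stood apart, and no comparison passed the threshold (log2 fold changes against wild type of -0.07, 0.06 and -0.17, adjusted p = 0.70, 0.89 and 0.30). Of the windows of H2afz 33.2% are shared with 4 predicted genes, so some of its reads could also be assigned elsewhere. H2afv, which encodes the closely related H2A.Z.2, was at 110, 115 and 110 CPM in wild type, 118, 103 and 114 in DHX36 KO, 106, 101 and 99.2 in FANCJ KO and 128, 119 and 128 in DHX36/FANCJ KO. Its only called difference was between the double and the FANCJ knockout, 0.29 on the log2 scale (SE 0.08, adjusted p = 0.0073).

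**Figure D3:**
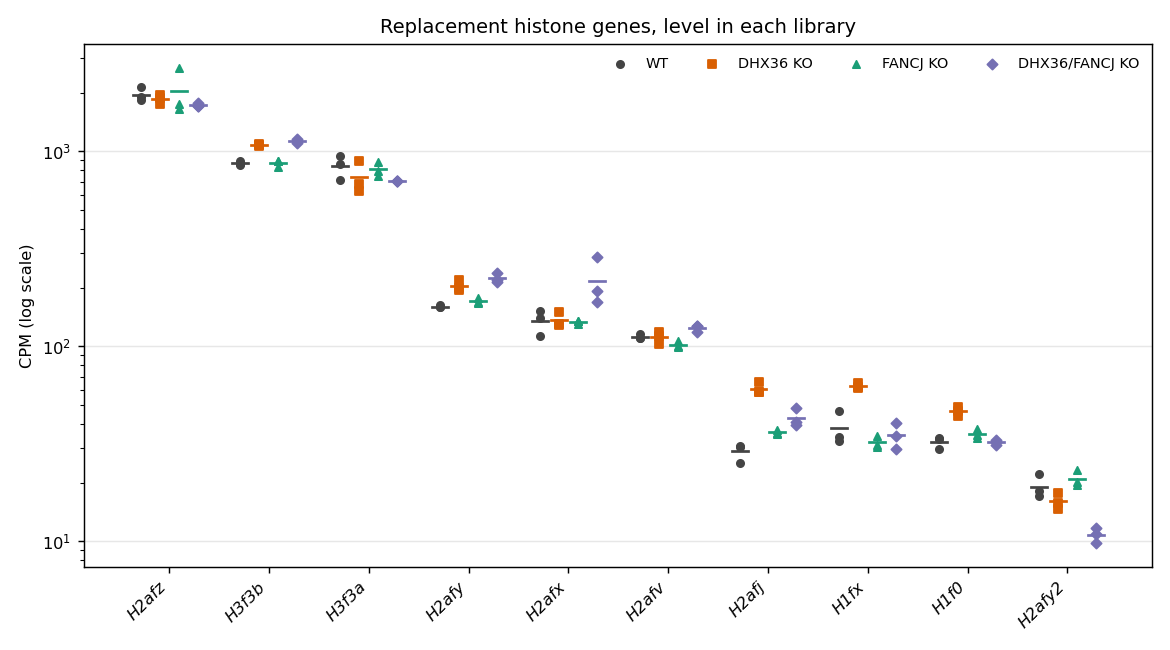
CPM (log scale) of the 10 tested replacement histone genes in each library, with a point for a library, a bar for the genotype mean and genes ordered by mean level. H2afj, H1fx and H1f0 are highest in DHX36 KO, H2afx is highest and H2afy2 lowest in DHX36/FANCJ KO, and H3f3b and H2afy are higher in both genotypes without DHX36.

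Among the replication-dependent genes, Hist1h2bc rose in both genotypes without DHX36. It is the H2B gene with the long second exon. Levels were 1.99, 3.01 and 3.04 CPM in wild type, 5.11, 6.95 and 6.29 in DHX36 KO, 4.51, 2.79 and 3.71 in FANCJ KO and 7.10, 8.61 and 7.57 in DHX36/FANCJ KO. Libraries without DHX36 all lay above those with it. Against wild type its log2 fold change was 1.17 (SE 0.27, adjusted p = 0.0025) and 1.52 (SE 0.25, adjusted p = 6.8e-05), the double exceeded the FANCJ knockout by 1.07 (SE 0.22, adjusted p = 0.00054), and the interaction was -0.09 (SE 0.35, adjusted p = 0.91). Its windows are shared with 100 genes over 30.1% of the transcript.

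Hist1h4i and Hist3h2a were also higher than wild type in both genotypes without DHX36. Hist1h4i, an H4 gene whose transcript runs 330 bases past the stem-loop, was at 4.21, 2.12 and 1.41 CPM in wild type, 5.56, 5.37 and 6.01 in DHX36 KO, 1.55, 3.46 and 2.27 in FANCJ KO and 4.6, 5.42 and 5.34 in DHX36/FANCJ KO. The log2 fold change was 1.14 (SE 0.32, adjusted p = 0.012) and 0.99 (SE 0.32, adjusted p = 0.019) against wild type. Neither group overlapped wild type, but the calls were lost without wild-type replicate 2 (adjusted p = 0.069 and 0.095) or replicate 3 (0.069 and 0.10), and at equal totals (0.051 and 0.072). Without replicate 2 of the double knockout the second was 0.051. Hist3h2a, an H2A gene outside the large cluster, was at 0.664, 0.884 and 0.937 CPM in wild type, 2.45, 3.47 and 1.20 in DHX36 KO, 0.902, 1.06 and 2.48 in FANCJ KO and 2.57, 2.79 and 3.29 in DHX36/FANCJ KO. The log2 fold change was 1.43 (SE 0.51, adjusted p = 0.047) and 1.77 (SE 0.48, adjusted p = 0.0069). The first call was lost under 7 of 11 alternatives, the second under none. Hist3h2a lies within Trim17 on the same strand, a gene with 0 to 5 counts a library, and was among the genes that reached the filter level in no wild-type library. Tags of both genes are uncertain: 28.9% of the windows of Hist1h4i are shared with 10 other genes and 31.5% of those of Hist3h2a with 15.

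Hist1h1c was the linker histone gene that rose in DHX36/FANCJ KO only. It encodes H1.2, a main somatic H1, and its transcript runs 840 bases past the stem-loop with a poly(A) signal. Levels were 2.88, 4.95 and 5.62 CPM in wild type, 5.89, 6.16 and 4.90 in DHX36 KO, 4.51, 4.92 and 5.57 in FANCJ KO and 11.4, 14.9 and 10.1 in DHX36/FANCJ KO. The single knockouts overlapped wild type, and every double knockout library lay above them all. The double knockout exceeded wild type by 1.43 on the log2 scale (SE 0.23, adjusted p = 4.1e-05), the DHX36 knockout by 1.12 (SE 0.19, adjusted p = 0.00026) and the FANCJ knockout by 1.29 (SE 0.21, adjusted p = 4e-05). The interaction was 0.98 (SE 0.33, adjusted p = 0.075), so a departure from added single effects did not pass the threshold.

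Hist1h4d was lowest in FANCJ KO. This H4 gene was at 1.99, 4.6 and 2.81 CPM in wild type, 4.56, 2.84 and 3.24 in DHX36 KO, 1.29, 0.798 and 1.44 in FANCJ KO and 4.13, 3.99 and 4.19 in DHX36/FANCJ KO. The FANCJ knockout libraries lay below all others. The difference from wild type was -1.47 (SE 0.39, adjusted p = 0.056) and missed the threshold, the double knockout exceeded the FANCJ knockout by 1.82 (SE 0.34, adjusted p = 0.00023), and the interaction was 1.67 (SE 0.48, adjusted p = 0.030). The interaction lost its call under 9 of 17 alternatives, with the highest adjusted p at equal totals (0.24) and without wild-type replicate 2 (0.16). Without wild-type replicate 1 the comparison of the FANCJ knockout with wild type passed the threshold for this gene.

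The double knockout against the FANCJ knockout gave the most histone calls, 12 up and 1 down, against 18.3% and 18.5% of all genes, with a median log2 difference of 0.67 over the 25 histone genes and 0.02 over all genes. Of the 15 tested replication-dependent genes 8 were higher. Beside those above they included Hist1h1a, the H1.1 gene, with 0.516, 0.399 and 0.825 CPM in FANCJ KO and 2.30, 2.07 and 1.42 in DHX36/FANCJ KO (log2 difference 1.80, SE 0.51, adjusted p = 0.0083). The H3 genes Hist1h3c (0.97, SE 0.38, adjusted p = 0.048) and Hist1h3d (1.19, SE 0.45, adjusted p = 0.045) were near the threshold and lost their calls under 8 of 12 and 8 of 11 alternatives. Hist3h2a (1.06, SE 0.40, adjusted p = 0.044) lost its call here under 8 of 12, with a highest adjusted p of 0.20 without FANCJ KO replicate 1, and Hist1h1a under 1 of 11, without FANCJ KO replicate 2 (0.052). The tags of Hist1h3c and Hist1h3d are also uncertain, with 47.0% and 24.8% of windows shared with 12 other genes, H3 genes among them. Hist1h1a, Hist1h3d, Hist1h3g, Hist1h3a and Hist1h1d reached the filter level in no FANCJ KO library, so they were tested only because of their level in other genotypes. Hist1h1a and Hist1h3d reached it in all 3 libraries of DHX36/FANCJ KO. The counts and the median of this comparison may therefore lean towards higher values in the double knockout. The double knockout against the DHX36 knockout gave 2 higher genes, Hist1h1c and H2afx, and 4 lower ones, H1f0, H1fx, H2afj and H2afy2, where 8.28% of all genes rose and 11.4% fell. The interaction was positive for H2afx and Hist1h4d and negative for H1f0, H1fx, H2afj and H2afy2, against 2.73% and 6.06% of all genes.

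The most abundant replication-dependent genes other than Hist1h1c, Hist1h2bc and Hist1h4i were the H2A genes Hist1h2ap and Hist1h2ae. Hist1h2ap was at 41.8, 51.4 and 30.7 CPM in wild type, 44.1, 43.7 and 29.6 in DHX36 KO, 32.6, 33.4 and 36.3 in FANCJ KO and 41.2, 40 and 48.9 in DHX36/FANCJ KO. Each knockout overlapped wild type, and the log2 fold changes were -0.10 (SE 0.16), -0.29 (SE 0.17) and 0.05 (SE 0.16) with adjusted p = 0.69, 0.42 and 0.82. Hist1h2ae averaged 5.90 ± 2.59, 4.65 ± 1.28, 4.02 ± 1.19 and 4.48 ± 1.54 CPM (SD, n = 3) in wild type and the DHX36, FANCJ and double knockouts, with no call in any comparison. The other 5 tested genes of the class, Hist1h1b, Hist1h1d, Hist1h1e, Hist1h3a and Hist1h3g, named after their values were seen, were not called in any comparison and had mean levels of 0.901 to 3.31 CPM.

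**Figure D4:**
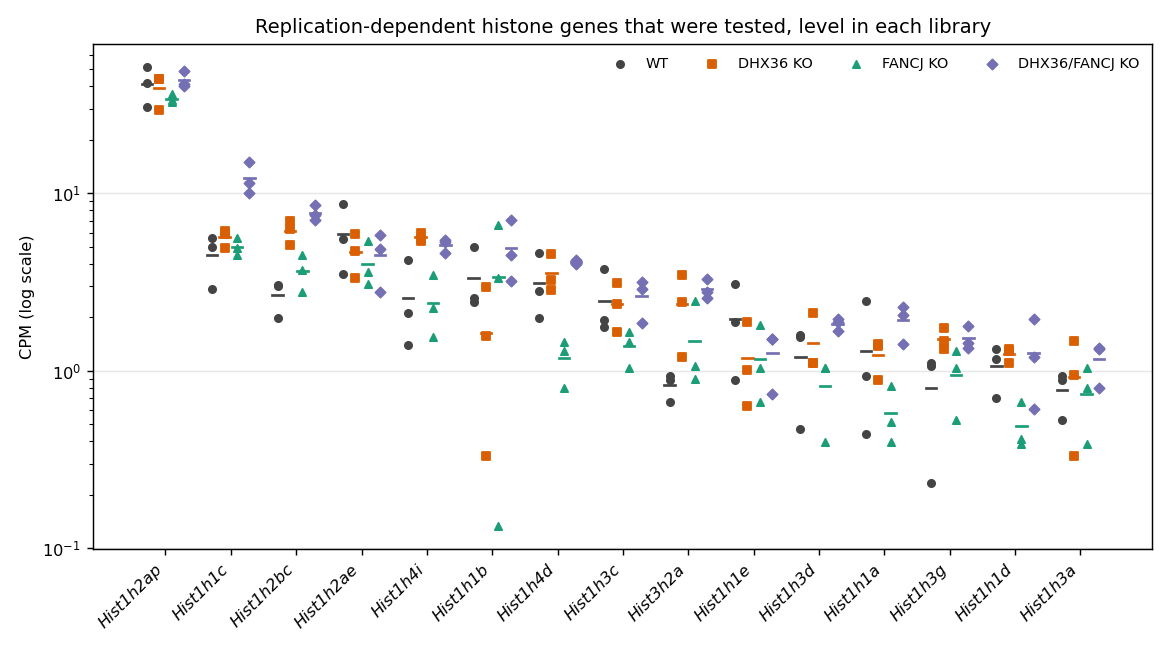
CPM (log scale) of the 15 tested replication-dependent histone genes in each library, with a point for a library, a bar for the genotype mean and genes ordered by mean level. Hist1h2bc and Hist1h4i are higher in both genotypes without DHX36. Hist3h2a is higher there than in wild type, but its DHX36 KO and FANCJ KO libraries overlap. Hist1h1c is higher in DHX36/FANCJ KO, and Hist1h4d is lowest in FANCJ KO.

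Most replication-dependent rows are too low for a test, so all 67 were also summed by type, as a description with no test. The whole class summed to 83.7, 96.9 and 75.2 CPM in wild type, 103, 101 and 85.3 in DHX36 KO, 67.3, 63.4 and 80.5 in FANCJ KO and 103, 115 and 113 in DHX36/FANCJ KO. With Hist1h2ap included, only the double knockout lay clear of wild type, at a log2 ratio of means of 0.37. The other ratios were 0.17 and -0.28. Hist1h2ap weighs on these sums: without it the ratio was 0.38 in DHX36 KO and 0.61 in DHX36/FANCJ KO. Without it the DHX36 knockout libraries also all lay above the wild-type libraries. By type, H4 genes summed to 8.64, 7.60 and 6.56 CPM in wild type, 14.5, 12.6 and 13.0 in DHX36 KO, 5.28, 5.45 and 5.36 in FANCJ KO and 10.8, 12.4 and 12.1 in DHX36/FANCJ KO, so the DHX36-deficient libraries were all higher than wild type and the FANCJ knockout libraries all lower (log2 ratios 0.82, 0.63 and -0.50). Hist1h4d alone averaged 3.13 ± 1.33 CPM in wild type and 1.18 ± 0.337 in FANCJ KO (SD, n = 3). Over the 11 untested H4 genes DHX36 KO lay above wild type (log2 ratio 1.15), while FANCJ KO (-0.10) and DHX36/FANCJ KO (0.43) overlapped it. H3 sums were likewise above wild type in both genotypes without DHX36 and below it in FANCJ KO, at ratios of 0.32, 0.44 and -0.49, and over the 8 untested H3 genes only DHX36/FANCJ KO did not overlap wild type (ratios 0.46, 0.43 and -0.62). H2B genes averaged 7.10 ± 2.38 CPM in wild type and 7.25 ± 0.216 in FANCJ KO against 12.7 ± 0.352 in the DHX36 and 13.2 ± 1.37 in DHX36/FANCJ KO (SD, n = 3). Hist1h2bc alone averaged 2.68 ± 0.596 CPM in wild type, 6.12 ± 0.928 in DHX36 KO and 7.76 ± 0.774 in DHX36/FANCJ KO (SD, n = 3). Over the 17 untested H2B genes both genotypes overlapped wild type, at log2 ratios of 0.58 and 0.30. H1 sums were higher in DHX36/FANCJ KO only, at 19.5, 26.8 and 18.2 CPM against 10.2, 14.0 and 12.2 in wild type. Hist1h1c alone averaged 4.48 ± 1.43 CPM in wild type and 12.1 ± 2.51 in DHX36/FANCJ KO (SD, n = 3). Hist1h1a, Hist1h1b, Hist1h1d and Hist1h1e were not called between these genotypes, so the sum does not show a rise of the H1 genes in general. H2A sums overlapped wild type in every knockout, with ratios of -0.04, -0.28 and 0.07.

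The sum of the 52 untested replication-dependent rows was 12, 7.07 and 15.2 CPM in wild type, 17.7, 16.4 and 18.4 in DHX36 KO, 9.02, 8.38 and 9.70 in FANCJ KO and 13.0, 16.1 and 12.8 in DHX36/FANCJ KO. The DHX36 knockout lay above wild type (log2 ratio 0.62) and the others overlapped it. Untested H2A and H2B rows overlapped wild type in every knockout. Of the 67 genes, 34 to 40 had a count in a wild-type library, 46 to 54 in DHX36 KO, 42 to 43 in FANCJ KO and 45 to 54 in DHX36/FANCJ KO. At equal totals of 4284785 counts the numbers were 31 to 40, 42 to 46, 34 to 41 and 40 to 45. Over all genes, 15392 to 15984 had a count in a wild-type library and 16653 to 17623 in DHX36 KO, before thinning. In FANCJ KO they were 15961 to 16760 and in DHX36/FANCJ KO 17995 to 18441. The number over all genes at equal totals was not taken. Whether the higher detection in DHX36 KO is particular to histone genes was therefore not tested. The replacement genes summed to 3909 to 4474 CPM in wild type and overlapped it in each knockout, with log2 ratios of 0.04, 0.02 and 0.03. The replication-dependent share of histone counts was 1.99 ± 0.120% in wild type, 2.19 ± 0.312% in DHX36 KO, 1.63 ± 0.0342% in FANCJ KO and 2.52 ± 0.128% in DHX36/FANCJ KO (SD, n = 3). The FANCJ knockout libraries were all below wild type and the double knockout libraries all above it.

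**Figure D5:**
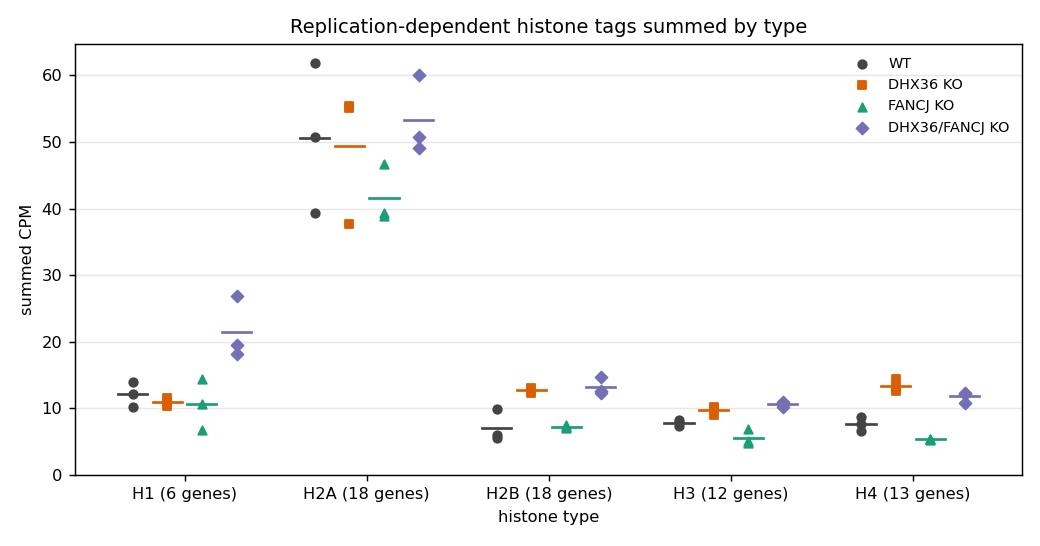
Summed CPM of the 67 replication-dependent histone genes by histone type, with a point for a library and a bar for the genotype mean. H4 and H3 sums are higher than wild type in both genotypes without DHX36 and lower in FANCJ KO, H1 sums are higher in DHX36/FANCJ KO, and H2A sums overlap.

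Genes that act on histones were taken from lists and are described by counts, to be read against 12.8% of all genes up and 11.6% down in DHX36 KO, 1.45% and 0.619% in FANCJ KO, and 16.6% and 17.3% in DHX36/FANCJ KO. With lists this short, the counts mark nothing as particular to a list. Of 14 genes of histone pre-mRNA 3′ processing, 5 fell and none rose in DHX36 KO, and 4 fell in DHX36/FANCJ KO (medians -0.17 and -0.08). Lsm11, a protein of the U7 particle, fell by 0.67 (SE 0.19, adjusted p = 0.011) and 0.62 (SE 0.18, adjusted p = 0.0095) on the log2 scale, and Cpsf3, the nuclease that cuts histone and other pre-mRNAs, by 0.46 (adjusted p = 0.0028) and 0.43 (adjusted p = 0.0024). Slbp was at 204, 221 and 225 CPM in wild type and 157, 164 and 143 in DHX36/FANCJ KO, a fall of 0.49 (SE 0.08, adjusted p = 8.3e-05). Of 7 genes of histone gene transcription, 2 rose and 2 fell in each (medians 0.07 and -0.26): Npat, the coactivator of replication-dependent histone genes, fell by 0.37 and 0.41, Cdk2, which phosphorylates NPAT, fell by 0.43 and 0.37, and E2f1 rose by 0.48 and 0.51 in the DHX36 and double knockouts. Of 8 histone mRNA decay genes, 1 rose and 1 fell in DHX36 KO and 1 rose and 4 fell in DHX36/FANCJ KO (medians -0.14 and -0.25). There Eri1, an exonuclease that trims the histone stem-loop end, fell by 0.49 (adjusted p = 0.00051) and Tut7, a uridylyl transferase, rose by 0.53 (adjusted p = 0.0051). Of 15 cleavage and polyadenylation genes, 4 fell and none rose in DHX36 KO and 3 fell and 1 rose in DHX36/FANCJ KO (medians -0.19 and -0.06), led by Pabpc1, the cytoplasmic poly(A) binding protein, which fell by 0.80 and 0.77 (adjusted p = 6e-08 and 3.6e-08). No gene of these 4 lists was called in FANCJ KO. Their part in the histone results was not tested.

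The same shares of all genes apply to the remaining lists. Among 15 chaperones of replication-coupled deposition, 4 fell and none rose in DHX36 KO and 5 fell and 1 rose in DHX36/FANCJ KO (medians -0.19 and -0.13), with Ipo4, a histone import factor, falling by 0.54 and 0.80. Of 12 variant deposition genes, 3 rose and 2 fell in the first comparison and 4 rose and 1 fell in the second (medians 0.16 and 0.16). Hjurp, the CENP-A chaperone, rose by 0.74 (adjusted p = 0.0094) and 1.13 (adjusted p = 0.00014), Ubn2 of the HIRA complex by 0.53 and 0.60 and Daxx by 0.24 and 0.36, while Atrx fell by 0.44 in DHX36 KO. Neither list had a call in FANCJ KO. Of 28 S-phase genes, 1 rose and 5 fell in DHX36 KO and likewise in DHX36/FANCJ KO (medians -0.14 and -0.11), the latter close to the share of all genes that fell, and Cdt1 fell by 0.40 (adjusted p = 0.029) in FANCJ KO. Their summed level was 5139 to 5505 CPM in wild type, 4750 to 5142 and 4977 to 5144 in the DHX36 and FANCJ knockouts and 4434 to 4882 in DHX36/FANCJ KO, where the summed replication-dependent histones were above wild type. The part of S phase and of these lists in the histone results was not tested.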

How the data were processed

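For 12 libraries of 4 genotypes the authors deposited raw counts, whole numbers for each gene. Libraries were made by a CEL-Seq2-like protocol, per the labels' protocols. The submitters' processing notes name BWA and the builds GRCm38 and hg38. Whether a count is a read or a molecule, and how strand and multiple alignments were handled, is not given in the sources used here.

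Tests used edgeR 4.0.16 under R 4.3.3 (TMM normalisation, filterByExpr by genotype, quasi-likelihood F test, two-sided), with all 12 libraries in 1 model of genotype (8 residual degrees of freedom) and Benjamini-Hochberg adjustment over 12765 genes at 0.05. CPM use TMM-scaled totals, and standard errors derive from the fold change and F. Replicate libraries differed by more than sampling noise (chi-square per degree of freedom 3.87 to 11.3). Stem-loops, overlaps and shared 50-base windows were searched in GENCODE M21 transcripts with Python 3.11.15. The fit was tested on simulated data. Alternatives were DESeq2 1.42.0, upper-quartile scaling, no filter, a mean of at least 20 CPM, only the genotypes compared, a replicate block, equal totals, and each library left out.

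The members and lists were chosen with earlier results of these data known. Histone genes named are those called in any comparison and the 5 of each class with the highest mean; of each list, up to 3 called members per comparison with wild type by size of change, with the targeted genes Dhx36 and Brip1.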

Additional observations from a re-analysis of the deposited data

Results flagged for a closer look

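For 6 histone genes the effect of FANCJ loss differed between cells without and with DHX36 by the test of the interaction. The log2 difference of the 2 effects was -0.66 for H1f0, -0.60 for H1fx, -0.83 for H2afj and -0.70 for H2afy2, and 0.68 for H2afx and 1.67 for Hist1h4d. H1f0 and H2afj kept an adjusted p under 0.05 in each of 18 alternatives. H1fx lost it in 13 of 18 (highest adjusted p 0.21), H2afx in 9 of 18 (0.10), H2afy2 in 6 of 17 (0.077) and Hist1h4d in 9 of 17 (0.24).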

How the results depend on the processing

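Of 42 called differences of single histone genes, 29 kept direction and threshold under every alternative run and 13 lost the call under at least 1; no direction reversed. The count of called histone genes in FANCJ KO against wild type was 1 with DESeq2 and 1 with no filter, in place of 0. With a mean of at least 20 CPM, which leaves out H2afy2 and the replication-dependent genes but Hist1h2ap, it was 5 in DHX36 KO and 4 in DHX36/FANCJ KO against wild type, and 4 for the double against the FANCJ knockout. At equal totals the double against the FANCJ knockout gave 8 and the interaction 3, in place of 13 and 6. Leaving out 1 library at a time, the counts were 6 to 9 for the DHX36 knockout, 0 to 1 for the FANCJ knockout and 8 to 9 for the double knockout against wild type, 6 to 7 and 9 to 11 for the double against the DHX36 and the FANCJ knockout, and 2 to 5 for the interaction. The interaction gave 2 without wild-type replicate 2 and 3 without DHX36 knockout replicate 1 or 3, any FANCJ knockout library, or double knockout replicate 3; the FANCJ knockout gave 1 without wild-type replicate 1.

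Without its highest member the log2 ratio of the summed replication-dependent genes was 0.38 in the DHX36 and 0.61 in DHX36/FANCJ KO, and that of the replacement genes 0.13 and 0.18. Over totals without mitochondrial transcripts the replacement ratio in DHX36/FANCJ KO was 0.10. Leaving out 1 library, the replication-dependent ratio ranged from 0.09 to 0.28, -0.38 to -0.17 and 0.29 to 0.47 in the DHX36, FANCJ and double knockouts, and the replacement ratio from -0.01 to 0.09, -0.10 to 0.08 and -0.02 to 0.07. The cause was not tested.

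The replicate numbers did not pair the libraries: over 18 same-number pairs the correlation of deviations was -0.06 to 0.05, and 4 of 12 libraries correlated best with their own number. With a replicate block the counts were 7, 0 and 9 against wild type for the DHX36, FANCJ and double knockouts, 6 and 11 for the double against the DHX36 and the FANCJ knockout, and 4 for the interaction. For 52 of the 67 replication-dependent genes counts were too low to be tested at this depth.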

Other observations

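Hist1h1b, an H1 gene chosen after its values were seen, varied widely within genotypes, with 2.44, 4.95 and 2.58 CPM in wild type, 0.334, 1.58 and 2.96 in DHX36 KO, 3.35, 0.133 and 6.60 in FANCJ KO and 4.46, 7.10 and 3.21 in DHX36/FANCJ KO. It was not called in any comparison.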
